A study of Mus musculus with 20 samples.

Results

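The fatty acid desaturases and elongases described here are 10 genes chosen by symbol, Scd1, Scd2, Fads1, Fads2, Fads3, Elovl1, Elovl2, Elovl3, Elovl5 and Elovl6. All 10 were among the 15608 genes of the liver table, and 9 were among the 20738 genes of the table of epididymal white adipose tissue (eWAT, the fat pad beside the epididymis). Elovl3 was not analysed here in eWAT. Poly-A RNA was sequenced from 2-month-old male mice in 4 groups of 5 libraries, namely IR 4A eWAT, WT eWAT, IR 4A liver and WT liver, 20 libraries in all. IR 4A mice carry an insulin receptor altered where it binds MAD2, a checkpoint protein of mitosis with a part in endocytosis of the receptor, and WT mice carry the normal receptor. The zygosity of IR 4A, the litters and the feeding state are not given in the sources used here. Since no label ties a library to an animal, p-values measure the spread between libraries, which may be technical.

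Desaturases put a double bond into a fatty acyl-CoA, and elongases add a pair of carbons from malonyl-CoA as the first and rate-setting step of the elongation cycle in the endoplasmic reticulum. Scd1 and Scd2 make oleate and palmitoleate from saturated acids, while Fads1 and Fads2 act on polyunsaturated acids on the way to arachidonate and docosahexaenoate, with Elovl5 and Elovl2 lengthening the intermediates. Elovl6 converts palmitate to stearate, and Elovl1 and Elovl3 lengthen longer saturated and monounsaturated acids. In liver, insulin raises the transcription of many of these genes through SREBP-1c, the product of Srebf1, and in adipose tissue Scd1 is an abundant adipocyte mRNA.

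Scd1 and Scd2 lie in a cluster with their paralogs, in the order Scd3, Scd2, Scd4, Scd1, and Fads3, Fads2 and Fads1 lie next to each other in that order. Promoters from RefSeq (GRCm38.p6) were found for 6 of the 10 genes, as 8 windows of 250 bases upstream of a start site. Scd1, Scd2, Fads1 and Elovl3 had no window and were not searched. Fads2 and Fads3 are shown because these neighbours had opposite levels between the tissues (below, Fads2 lower and Fads3 higher in eWAT). Each runs 5′ to 3′ on the strand of its gene, with GGGCGG (Sp1 box) and CCAAT (NF-Y box), or their reverse complements, in capitals.
Fads3, chr19:10041298-10041547, plus strand: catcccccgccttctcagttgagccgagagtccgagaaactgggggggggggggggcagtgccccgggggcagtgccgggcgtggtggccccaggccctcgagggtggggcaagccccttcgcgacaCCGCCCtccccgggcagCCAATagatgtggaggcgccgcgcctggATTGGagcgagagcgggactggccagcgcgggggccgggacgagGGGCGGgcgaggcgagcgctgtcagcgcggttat
Fads2, chr19:10101504-10101753, minus strand: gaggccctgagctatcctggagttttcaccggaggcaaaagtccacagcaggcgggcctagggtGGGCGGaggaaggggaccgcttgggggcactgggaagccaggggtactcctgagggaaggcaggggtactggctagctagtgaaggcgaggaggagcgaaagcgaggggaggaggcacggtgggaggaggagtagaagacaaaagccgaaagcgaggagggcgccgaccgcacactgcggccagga
The Fads3 window was 74.4% G and C and held 2 NF-Y boxes and 2 Sp1 boxes, and the Fads2 window was 64.8% G and C and held 1 Sp1 box and no NF-Y box. GGGCGG was found in 5 of the 8 windows and in 32.7% of 32851 windows of all genes, and CCAAT in 3 of 8 and in 33.8%. The E-box CACGTG was in 1 of 8, that of Elovl5, and in 6.02% of all windows. The sterol regulatory element letters TCACNCCAC were in 0 of 8 and in 1.05% of all windows, and 8 windows are too few to show a lack of them. Both strands were searched, in 1 of the 2 Elovl1 windows an NF-Y box overlapped an Sp1 box, and a match is a description of letters only.

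Estimated counts summed to 13651874 to 15530589 in IR 4A eWAT libraries, 15702786 to 21615358 in WT eWAT libraries, 18209000 to 24238359 in IR 4A liver libraries and 17989420 to 21067651 in WT liver libraries. The 8 hepatocyte markers summed to 71906 to 83510 CPM in IR 4A liver and 71616 to 82676 CPM in WT liver. In eWAT they summed to 269 to 2474 CPM in IR 4A and 1400 to 3986 CPM in WT. Most of the eWAT sum was Cyp2e1, which averaged 1415 CPM in IR 4A and 2192 CPM in WT. Alb averaged only 36.7 and 64.6 CPM there. Libraries stood apart in both tissues. In liver, 10 of 10 acute phase genes were lower in IR 4A at an unadjusted p under 0.05, and their summed level was 4575 to 8640 CPM in IR 4A against 6737 to 51087 CPM in WT, with 51087 CPM in WT 1 and 29544 CPM in WT 3. In eWAT, the 12 epididymis markers summed to 21312 to 30063 CPM in IR 4A against 4745 to 22308 CPM in WT, where the lowest was WT 4. The 10 adipocyte markers summed to 3365 to 20169 CPM in IR 4A, with IR 4A 3 and IR 4A 4 lowest, against 11437 to 38565 CPM in WT, with WT 4 highest. The 10 sperm and spermatid markers summed to 2164 and 2969 CPM in IR 4A 3 and IR 4A 4 and to 1917 and 6324 CPM in WT 1 and WT 2, against 137 to 717 CPM in the others. At an unadjusted p under 0.05, 7 of 7 macrophage, 5 of 7 mesothelium, 4 of 8 adipocyte progenitor, 3 of 5 B cell and 2 of 6 endothelial markers tested in eWAT were lower in IR 4A, and 1 of 12 epididymis markers was higher. That threshold was passed in either direction by 15.9% of all genes in eWAT and 18.1% in liver. No adipocyte, epididymis or sperm marker was at 0 in any eWAT library. The macrophage markers summed to 80.2 to 203 CPM in IR 4A eWAT and 264 to 794 CPM in WT eWAT, without overlap, and the endothelial markers to 110 to 500.5 CPM in IR 4A eWAT and 354 to 1047 CPM in WT eWAT. The part of the macrophage, mesothelium, progenitor, B cell and endothelial lists in the members' values was not tested. In a bulk sample, fewer cells of a type and less RNA per cell cannot be told apart.

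In liver, mRNA of the stearoyl-CoA desaturases and of Fads1 and Fads2 averaged higher in IR 4A than in WT and that of Elovl3 averaged lower, with no member past an adjusted p of 0.05 in edgeR's quasi-likelihood test, where 0.00805% of 12421 genes passed. At an unadjusted p under 0.05, Scd1, Scd2, Fads1 and Fads2 were higher and Elovl3 was lower, 5 of 10 members against 18.1% of all genes. By DESeq2, Scd1, Scd2, Fads1 and Elovl3 passed, 4 of 10 members against 4.11% of the 10971 genes given an adjusted p. Fads3 was given none by DESeq2 in liver. Of the 10 members 8 had a positive change, with a median log2 fold change of 0.27, against 51.0% of all genes with a median of 0.005.

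Scd1, the main stearoyl-CoA desaturase of liver, had 5836, 3736, 6555, 6465 and 4270 CPM in IR 4A livers, against 990, 1988, 3048, 3914 and 1817 CPM in WT livers. The groups overlapped by 1 pair, since WT 4 lay above IR 4A 2. The means were 5372 ± 1294 CPM in IR 4A and 2351 ± 1140 CPM in WT (SD, n = 5 each), a log2 fold change of 1.19 (SE 0.32), with an edgeR adjusted p of 0.133 and a DESeq2 adjusted p of 0.00766. Scd1 alone made up 71.4% ± 3.39 of the members' summed CPM in IR 4A livers and 54.5% ± 10.8 in WT livers (SD, n = 5 each).

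Scd2, the form known for its expression in brain and adipose tissue, was near the lower end of detection in liver. It had 3.12, 3.36, 4.70, 5.89 and 3.43 CPM in IR 4A livers, against 2.69, 1.88, 2.95, 2.10 and 2.34 CPM in WT livers. The groups did not overlap, as held for Fads1 too, 2 of 10 members with IR 4A above WT against 1.68% of all genes. The log2 fold change was 0.78 (SE 0.21; adjusted p by edgeR = 0.139, DESeq2 adjusted p = 0.0330). Scd1 and Scd2 are close paralogs, so the share of reads that the authors' estimation gave to each is uncertain, and Scd1 held 99.9% of the pair's length-scaled level in both liver groups.

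Fads1, which makes arachidonate and eicosapentaenoate, had 413, 400, 442, 457 and 426 CPM in IR 4A livers, against 257, 344, 334, 336 and 347 CPM in WT livers. Every IR 4A liver lay above every WT liver. The means of 427 ± 22.7 CPM in IR 4A and 323 ± 37.6 CPM in WT (SD, n = 5 each) gave a log2 fold change of 0.40 (SE 0.10; adjusted p by edgeR = 0.115, DESeq2 adjusted p = 0.00378). WT 1 was far below the other WT livers, and it was also the lowest for Scd1 and Fads2.

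Fads2, which takes the first desaturation step of linoleate and linolenate, had 837, 731, 836, 921 and 779 CPM in IR 4A livers, against 465, 626, 660, 634 and 761 CPM in WT livers. Only WT 5 reached into the IR 4A range. The log2 fold change was 0.38 (SE 0.13; adjusted p by edgeR = 0.171, DESeq2 adjusted p = 0.0565). Fads1 and Fads2 kept nearly the same proportion in both genotypes, Fads2 holding 67.8% ± 1.10 of their length-scaled sum in IR 4A livers and 68.0% ± 1.72 in WT livers (SD, n = 5 each). Fads3, a family member reported to act on sphingoid bases, was low, at 0.85 to 1.91 CPM in IR 4A livers and 0.75 to 1.30 CPM in WT livers, with a log2 fold change of 0.30 (SE 0.27; adjusted p by edgeR = 0.585).

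Elovl3 was the member that averaged lower in IR 4A livers by the largest amount. It had 32.5, 20.0, 24.9, 43.3 and 21.7 CPM in IR 4A livers, against 45.1, 58.6, 71.1, 42.6 and 66.9 CPM in WT livers. The groups overlapped only in that IR 4A 4 lay just above WT 4. The means were 28.5 ± 9.57 CPM in IR 4A and 56.9 ± 12.7 CPM in WT (SD, n = 5 each), a log2 fold change of -0.998 (SE 0.21; adjusted p by edgeR = 0.109, DESeq2 adjusted p = 0.00198). Elovl3 belongs to a list of genes higher in male than in female mouse liver, of which 8 were tested. Of those, 6 had a negative change, Elovl3 itself included, while 51.0% of all genes had a positive one. Apart from Elovl3, only Cyp7b1, an oxysterol hydroxylase, had an unadjusted p under 0.05 (log2 fold change -0.75, edgeR adjusted p = 0.204). The share of all genes at that threshold was 18.1%. Mup20, a major urinary protein, was at 0.14 (edgeR adjusted p = 0.549).

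The other elongases differed less between the genotypes in liver. Elovl6 had 140, 142, 109, 108 and 133 CPM in IR 4A livers, against 61.8, 93.6, 68.5, 134 and 173 CPM in WT livers. The IR 4A livers lay inside the wider range of WT livers, and the log2 fold change was 0.25 (SE 0.25; adjusted p by edgeR = 0.618). Elovl1 was 18.3 to 25.3 CPM in IR 4A and 20.7 to 30.7 CPM in WT, a log2 fold change of -0.24 (SE 0.11; adjusted p by edgeR = 0.287). The polyunsaturated acid elongases Elovl2 and Elovl5 had log2 fold changes of 0.11 (SE 0.14; adjusted p by edgeR = 0.703) and 0.09 (SE 0.20; adjusted p by edgeR = 0.846). Elovl2 ranged from 332 to 505 CPM in IR 4A and from 348 to 461 CPM in WT, and Elovl5 from 147 to 311 CPM in IR 4A and from 168 to 295 CPM in WT.

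The acute phase genes moved with genotype beside these values. With WT 1 and WT 3 left out, the log2 fold changes in liver were 1.06 for Scd1, 0.96 for Scd2, 0.32 for Fads1, 0.28 for Fads2 and -0.98 for Elovl3, while Elovl6 turned to -0.08 and Elovl1 was at -0.11. The part of the acute phase genes in the members' values was otherwise not tested. The authors' deposited table for liver, in which 2.5% of 13287 genes passed an adjusted p of 0.05, listed Scd1 at a log2 fold change of 1.29 (adjusted p = 0.00168), Elovl3 at -1.01 (0.00168), Fads1 at 0.36 (0.0068) and Scd2 at 0.81 (0.0300), and Fads2 at 0.37 (0.0884), so 4 members passed there.

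**Figure D1:**
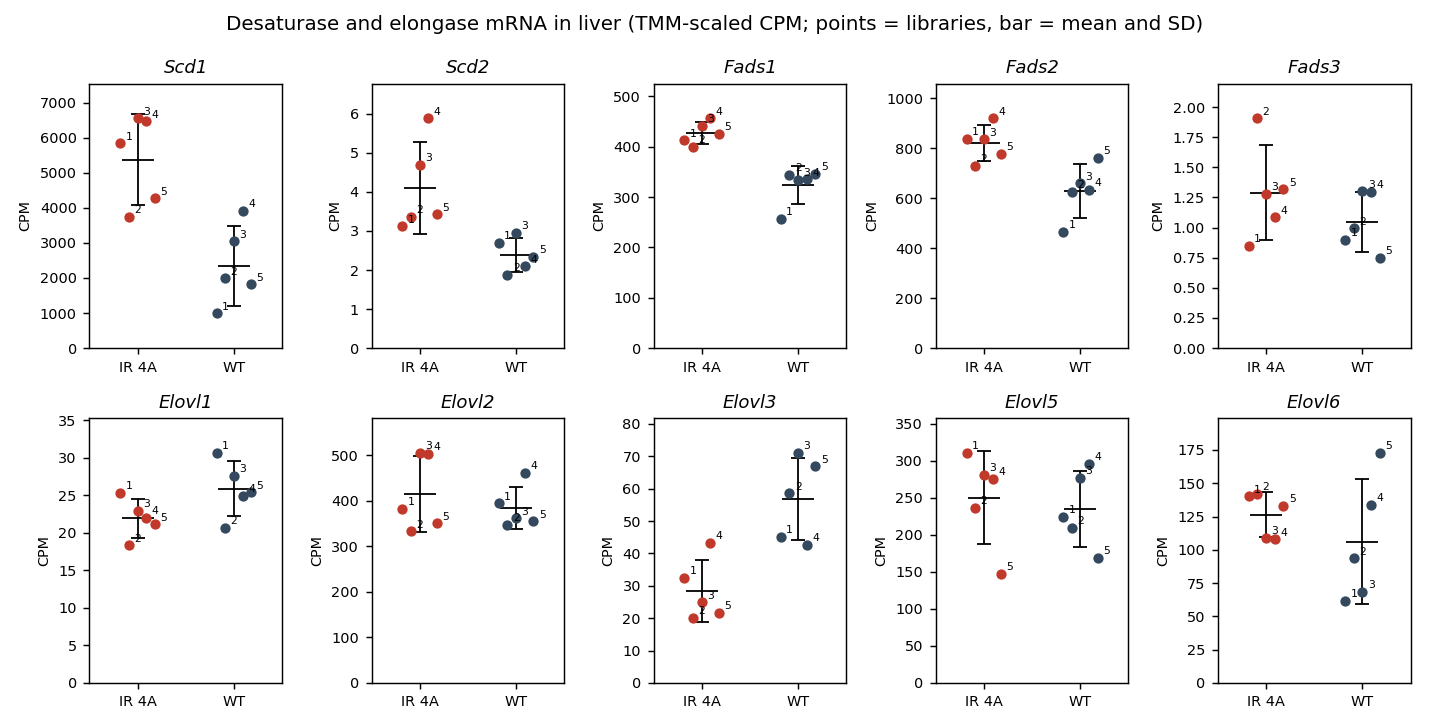
TMM-scaled CPM of the 10 members in liver, each panel with its own axis from 0, IR 4A left of WT, a point for each library with its replicate number and a bar for mean and SD. Scd2 and Fads1 are higher in all IR 4A livers than in any WT liver, and Elovl3 is lower in IR 4A except for 1 overlapping pair.

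In eWAT, Scd2, Fads1 and Fads2 averaged higher in IR 4A than in WT without overlap, Scd1 and Elovl5 averaged lower, and no member passed an adjusted p of 0.05 in edgeR's test, where 0.0121% of 16476 genes passed. At an unadjusted p under 0.05, Scd2, Fads1 and Fads2 were higher and Elovl5 was lower, 4 of 9 members against 15.9% of all genes. By DESeq2 Scd2, Fads1 and Fads2 passed, 3 of 9 against 7.31% of the 16466 genes given an adjusted p. Groups did not overlap with IR 4A above WT for 3 of 9 members and 2.52% of all genes. The median log2 fold change was 0.05 over the 9 members, 6 of them positive, and -0.08 over all genes, 40.1% of them positive. The marker levels above moved with genotype as well, and the values without the libraries concerned follow the members.

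Scd1 had 6643, 3720, 957, 1313 and 4337 CPM in IR 4A eWAT, against 6717, 3919, 5816, 12058 and 3950 CPM in WT eWAT. IR 4A 3 and IR 4A 4 were far below the rest and WT 4 far above, the same libraries that were lowest and highest in adipocyte markers. The means were 3394 ± 2336 CPM in IR 4A and 6492 ± 3338 CPM in WT (SD, n = 5 each), a log2 fold change of -0.94 (SE 0.55; adjusted p by edgeR = 0.433). With IR 4A 3, IR 4A 4 and WT 4 left out the log2 fold change was -0.06, and with the adipocyte marker level as a covariate it was -0.20.

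Scd2 had 994, 1285, 1099, 1122 and 1022 CPM in IR 4A eWAT, against 859, 717, 936, 635 and 953 CPM in WT eWAT. The groups did not overlap, IR 4A 1 and WT 5 being the closest libraries. The log2 fold change was 0.43 (SE 0.14; adjusted p by edgeR = 0.235, DESeq2 adjusted p = 0.0249). Scd1 made up 70.8% ± 16.8 of the length-scaled sum of Scd1 and Scd2 in IR 4A eWAT, from 49.6% to 88.3%, and 88.3% ± 4.88 in WT eWAT, from 82.4% to 95.5% (SD, n = 5 each).

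Fads1 had 274, 294, 290, 272 and 310 CPM in IR 4A eWAT, against 220, 178, 227, 150 and 261 CPM in WT eWAT. The groups did not overlap, and the log2 fold change was 0.47 (SE 0.14; adjusted p by edgeR = 0.220, DESeq2 adjusted p = 0.0158). Fads2 had 423, 483, 501, 451 and 513 CPM in IR 4A eWAT, against 342, 317, 357, 215 and 418 CPM in WT eWAT. IR 4A 1 lay just above WT 5, WT 4 was the lowest for both genes, and the log2 fold change of Fads2 was 0.52 (SE 0.16; adjusted p by edgeR = 0.226, DESeq2 adjusted p = 0.0198). Without WT 4, IR 4A 3 and IR 4A 4 the log2 fold changes were 0.35 for Scd2 and 0.40 for both Fads1 and Fads2, with the epididymis marker level as a covariate they were 0.31, 0.34 and 0.35, and without WT 1, WT 2, IR 4A 3 and IR 4A 4 they were 0.39 for Scd2, 0.47 for Fads1 and 0.53 for Fads2.

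Fads3 was highest in WT 4, as Scd1 was. It had 176, 149, 74.8, 80.6 and 158 CPM in IR 4A eWAT, against 129, 69.9, 152, 316 and 136 CPM in WT eWAT. The groups overlapped over most of their range, and the log2 fold change was -0.33 (SE 0.40; adjusted p by edgeR = 0.712). Without WT 4, IR 4A 3 and IR 4A 4 it was 0.40, and with the adipocyte marker level as a covariate 0.38.

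Elovl5 had 77.1, 71.7, 60.1, 63.1 and 77.6 CPM in IR 4A eWAT, against 90.0, 84.3, 77.0, 112 and 83.3 CPM in WT eWAT. Only WT 3 lay within the IR 4A range. The means were 69.9 ± 8.02 CPM in IR 4A and 89.3 ± 13.4 CPM in WT (SD, n = 5 each), a log2 fold change of -0.35 (SE 0.12; adjusted p by edgeR = 0.239, DESeq2 adjusted p = 0.0548), which was -0.15 without WT 4, IR 4A 3 and IR 4A 4.

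Elovl6 had 187, 267, 187, 226 and 191 CPM in IR 4A eWAT, against 174, 169, 192, 88.0 and 220 CPM in WT eWAT. WT 4 was lowest, and the log2 fold change was 0.33 (SE 0.22; adjusted p by edgeR = 0.487). It was 0.17 without WT 4, 0.19 without WT 4, IR 4A 3 and IR 4A 4, 0.22 with the adipocyte marker level as covariate, and 0.083 with the epididymis marker level as covariate. Elovl2 had 21.7, 41.6, 70.3, 74.9 and 34.0 CPM in IR 4A eWAT, against 56.1, 95.2, 34.0, 12.1 and 37.0 CPM in WT eWAT. Its values were highest in the libraries with most sperm markers, and its log2 fold change was 0.05 (SE 0.51; adjusted p by edgeR = 0.965), but -0.77 without WT 4, IR 4A 3 and IR 4A 4. Elovl1 was 22.8 to 32.5 CPM in IR 4A and 16.5 to 38.9 CPM in WT, a log2 fold change of 0.05 (SE 0.21; adjusted p by edgeR = 0.909). It was 0.36 both without WT 4, IR 4A 3 and IR 4A 4 and with the adipocyte marker level as covariate, and 0.26 with the epididymis marker level.

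In the authors' deposited table for eWAT, where 2.7% of 18715 genes passed an adjusted p of 0.05, 1 member passed, Fads2 at a log2 fold change of 0.54 (adjusted p = 0.0497). That deposited table of the authors also listed Fads1 at 0.45 (0.126), Scd2 at 0.32 (0.229), Elovl5 at -0.36 (0.174) and Scd1 at -1.34 (0.245).

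**Figure D2:**
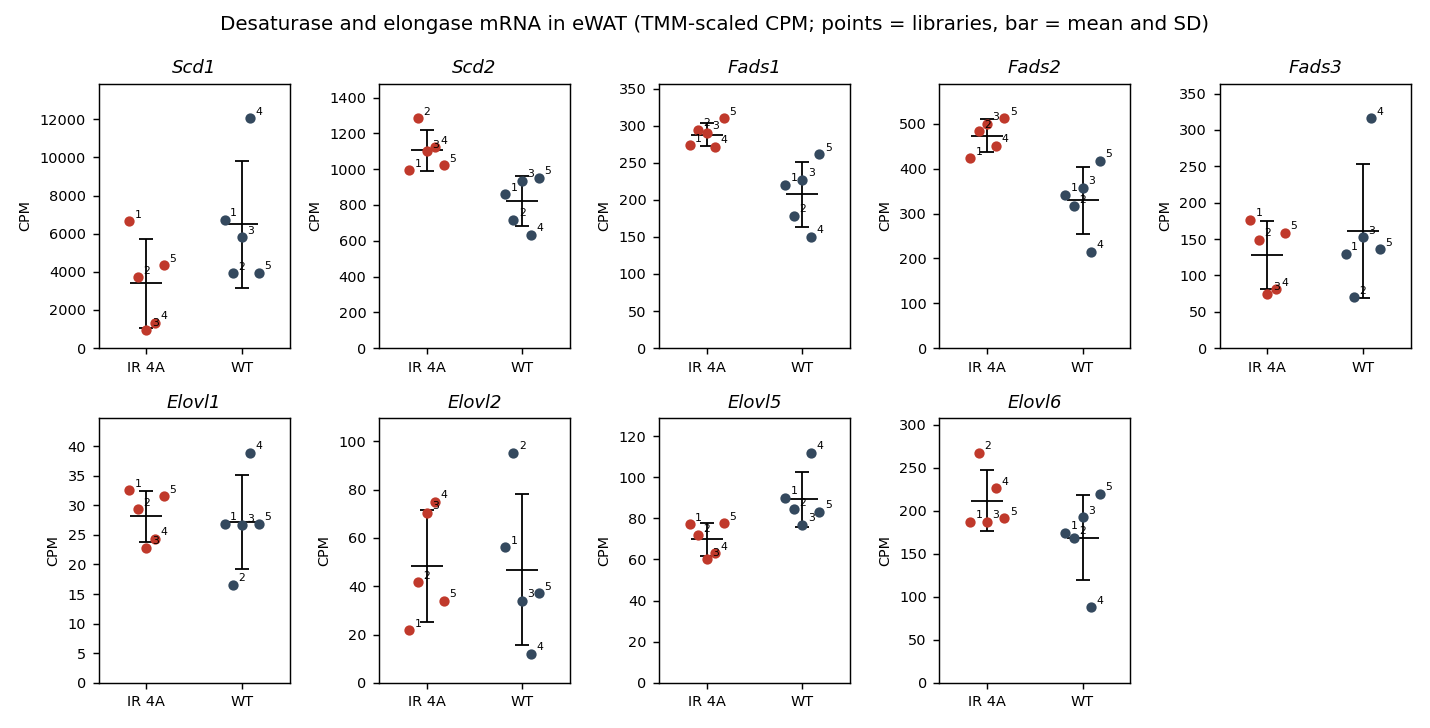
TMM-scaled CPM of the 9 members of the eWAT table, each panel with its own axis from 0, IR 4A left of WT, a point for each library with its replicate number and a bar for mean and SD. Scd2, Fads1 and Fads2 are higher in all IR 4A libraries than in any WT library, and Scd1 spans 957 to 12058 CPM over the 10 libraries.

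The eWAT members were set against marker levels across the 10 libraries, after group means were removed. These 27 relations (9 members, 3 marker lists) were chosen after the data had been seen and use permutation p-values adjusted over the 27. With the adipocyte marker level, Scd1 had a Pearson r of 0.96 (Spearman 0.96, adjusted permutation p = 0.00054), Fads3 0.91 (0.95, 0.00259), Elovl5 0.84 (0.81, 0.00842) and Elovl1 0.81 (0.91, 0.00842), and Elovl2 had -0.86 (-0.93, 0.0058). These 5 passed, and without the 2 libraries farthest from the median of the marker level r was 0.92, 0.93, 0.81, 0.84 and -0.90 in the same order.

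With the sperm and spermatid marker level, Elovl2 had a Pearson r of 0.90 (Spearman 0.89, adjusted permutation p = 0.00153), Fads3 -0.92 (-0.89, 0.00162), Elovl1 -0.88 (-0.91, 0.00148), Scd1 -0.74 (-0.76, 0.0325) and Elovl5 -0.72 (-0.68, 0.0354). The same members passed with the adipocyte marker level, each with r of the opposite sign. The adipocyte and sperm levels ran opposite to each other across libraries. Mean log2 CPM of the sperm list was 9.09 in WT 2 and 3.07 in WT 4, and that of the adipocyte list 9.07 and 10.95. Whether a member went with either list apart from the other was not tested. With the epididymis marker level 7 members passed, among them Elovl6 (Pearson r 0.90, Spearman 0.85, adjusted permutation p = 0.00842), Fads2 (0.90, 0.77, 0.00842), Fads1 (0.78, 0.72, 0.0211) and Scd2 (0.72, 0.75, 0.0211). Those 7 rest on few libraries, since without 2 libraries, WT 4 included, r was 0.53 for Elovl6, 0.47 for Fads2, 0.19 for Fads1 and 0.34 for Scd2. Of the members, Scd2, Fads1, Fads2 and Elovl6 did not pass with the adipocyte marker level (r from -0.39 to -0.17).

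**Figure D3:**
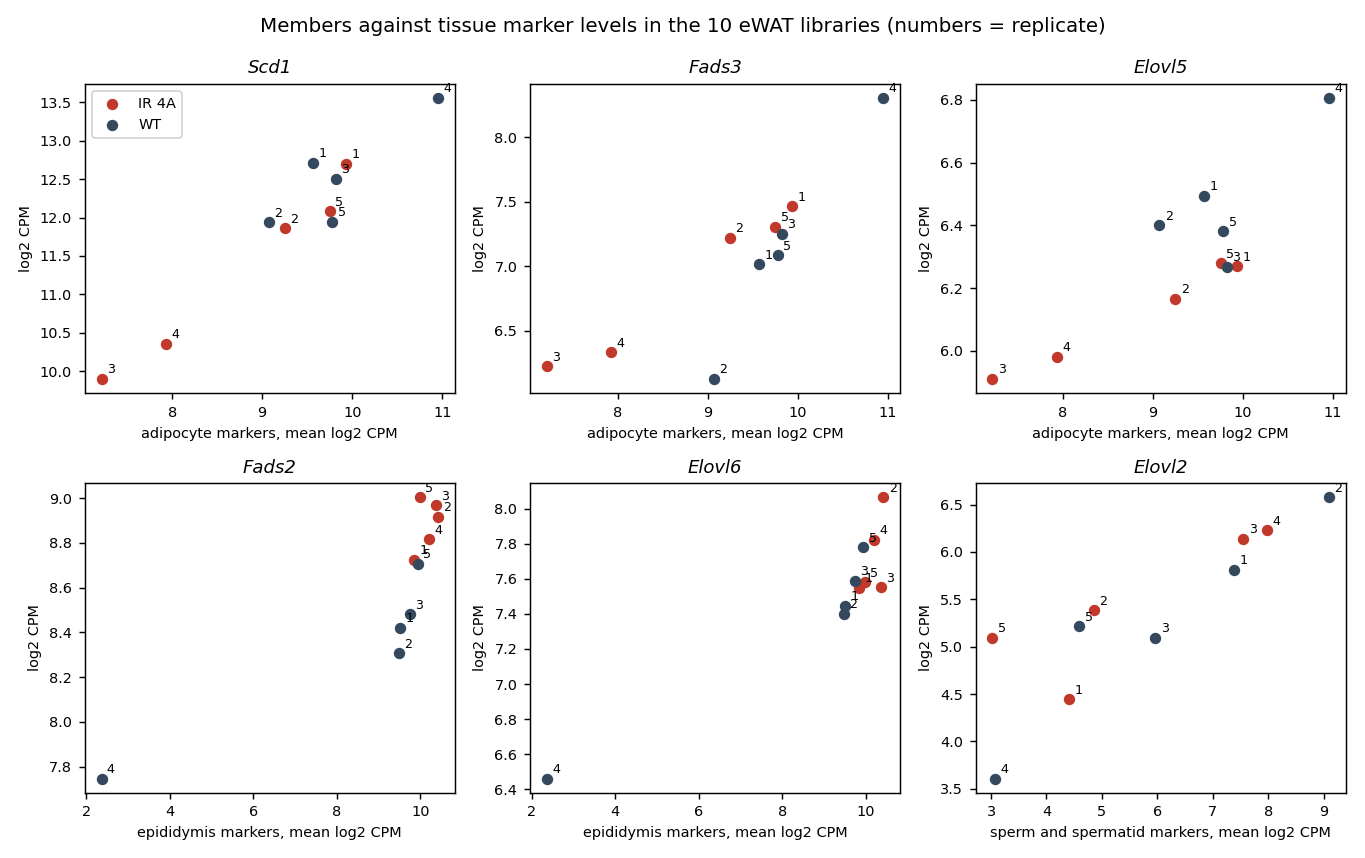
Log2 CPM of 6 members (y axes) against the mean log2 CPM of a marker list (x axes) in the 10 eWAT libraries, red for IR 4A and dark blue for WT, numbers giving the replicate. Scd1, Fads3 and Elovl5 rise with adipocyte markers and Elovl2 with sperm markers, while for Fads2 and Elovl6 the library WT 4 lies alone at the low end of the epididymis markers.

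Whether the change with IR 4A differed between the tissues was tested as eWAT minus liver in a fit of all 20 libraries. No member passed an adjusted p of 0.05, where 2.41% of 14696 genes passed, and only Scd1 had an unadjusted p under 0.05, as did 22.1% of all genes. Scd1 averaged lower in IR 4A eWAT and higher in IR 4A liver, a difference of -2.16 on the log2 scale (SE 0.68; edgeR unadjusted p = 0.00486, adjusted p = 0.0828). DESeq2, which called 1 member and 9.04% of the 14082 genes it gave an adjusted p, put Scd1 at an adjusted p of 0.0164. Limma voom with sample weights gave Scd1 0.0472, and edgeR called it at 0.0467 without eWAT IR 4A 1. The difference for Scd1 was -1.22 without eWAT WT 4, IR 4A 3 and IR 4A 4 (adjusted p by edgeR = 0.180) and -1.77 without eWAT WT 1, WT 2, IR 4A 3 and IR 4A 4 (adjusted p by edgeR = 0.176). In the fit of all 20 libraries the difference was 0.05 for Fads1 (SE 0.18) and 0.12 for Fads2 (SE 0.23), whose log2 fold changes in the fits of each tissue alone were 0.47 and 0.52 in eWAT and 0.40 and 0.38 in liver. Elovl5 had a difference of -0.46 (SE 0.25; adjusted p by edgeR = 0.276), and the remaining members lay between -0.64 for Fads3 and 0.27 for Elovl1. The median difference of all genes was -0.12.

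**Figure D4:**
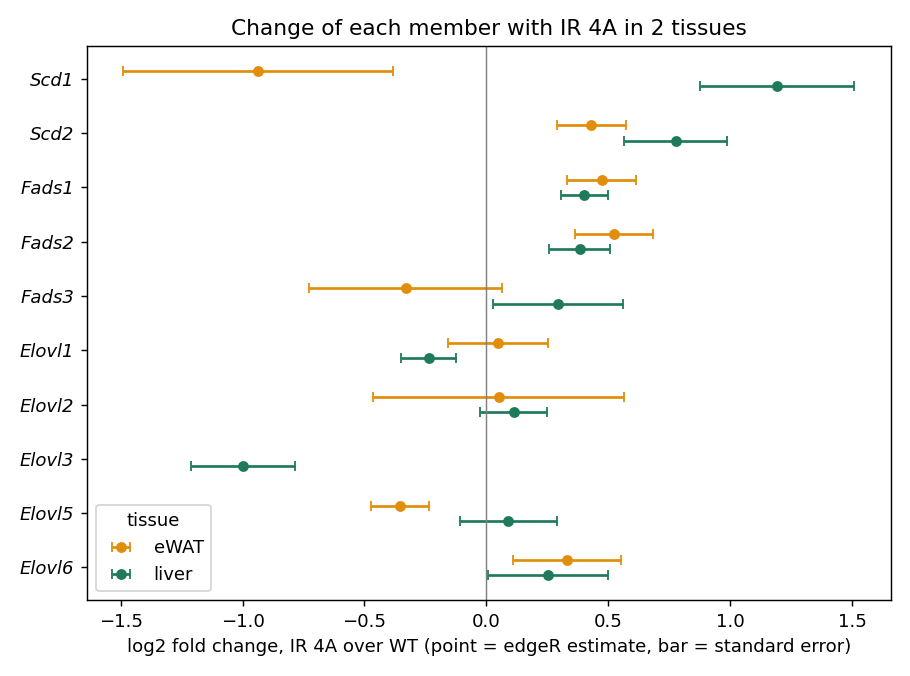
Log2 fold change of IR 4A over WT (x axis) for each member, with the standard error as a bar, eWAT in orange above liver in green. Fads1, Fads2 and Scd2 are right of 0 in both tissues, Scd1 is at -0.94 in eWAT and 1.19 in liver, and Elovl3 has a liver value only.

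Between the tissues of WT mice, 8 of 9 members passed the edgeR test at an adjusted p of 0.05, as did 77.1% of all genes, whose median log2 difference was 0.19. Of these 8, 2 were higher in eWAT and 6 lower, against 43.2% and 33.9% of all genes. Tissue and any difference in dissection or RNA yield cannot be told apart. CPM values here come from the joint scaling of both tissues. Scd2 averaged 540 ± 96.9 CPM in WT eWAT and 3.94 ± 0.743 CPM in WT liver (SD, n = 5 each), a 136-fold difference (log2 7.09, SE 0.22; adjusted p by edgeR = 2.82e-15). Fads3 averaged 105 ± 58.2 CPM in WT eWAT and 1.72 ± 0.393 CPM in WT liver, a 60.9-fold difference (log2 5.93, SE 0.40; adjusted p by edgeR = 9.63e-11).

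The enzymes of polyunsaturated acid synthesis were all lower in WT eWAT. Elovl2, which lengthens the longest intermediates of docosahexaenoate synthesis, averaged 31.0 ± 20.7 CPM in WT eWAT and 631 ± 69.6 CPM in WT liver (log2 -4.35, SE 0.45; adjusted p by edgeR = 4.16e-08). The log2 differences were -2.72 for Elovl5, -2.25 for Fads2 and -1.96 for Fads1, each with an edgeR adjusted p of at most 4.79e-10. Elovl1 was at -1.26 (SE 0.16; adjusted p by edgeR = 1.04e-06). Elovl6 was at -0.65 (SE 0.25; adjusted p by edgeR = 0.0260), a call that was lost without liver WT 4 or WT 5. Scd1 averaged 4247 ± 2105 CPM in WT eWAT and 3859 ± 1831 CPM in WT liver, a log2 difference of 0.14 (SE 0.47; adjusted p by edgeR = 0.796). The direction for Elovl6 and Elovl1 rests on the joint scaling. In each tissue's own scaling Elovl6 averaged 169 CPM in WT eWAT and 106 CPM in WT liver. Elovl1 averaged 27.2 and 25.9 CPM there, so both averaged higher in eWAT, and Scd1 averaged 6492 and 2351 CPM.

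Levels of different genes were compared as CPM per kb of the longest coding transcript, within each tissue's scaling. Scd1 led in all 4 groups, at 702 CPM per kb in IR 4A eWAT, 1344 in WT eWAT, 1112 in IR 4A liver and 487 in WT liver. In IR 4A eWAT, Scd2 (202), Fads2 (151), Fads1 (83.2), Elovl6 (35.6), Fads3 (34.7), Elovl5 (25.1), Elovl1 (15.5) and Elovl2 (12.6 CPM per kb) followed, where Scd1 and Scd2, Elovl6 and Fads3, Fads3 and Elovl5, and Elovl1 and Elovl2 overlapped. In WT eWAT only Scd1 stood clear of its neighbour, Scd2 (150 CPM per kb), and every later pair of neighbours overlapped, down to Elovl2 at 12.2 CPM per kb.

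In IR 4A liver the order was Scd1, Fads2 (261 CPM per kb), Fads1 (124), Elovl2 (108), Elovl5 (89.9), Elovl6 (21.2), Elovl3 (15.1), Elovl1 (12.1), Scd2 (0.752) and Fads3 (0.349). Fads1, Elovl2 and Elovl5 overlapped as neighbours, as did Elovl6, Elovl3 and Elovl1. In WT liver the order was Scd1, Fads2 (200), Elovl2 (99.9), Fads1 (93.5), Elovl5 (84.5), Elovl3 (30.2), Elovl6 (17.8), Elovl1 (14.3), Scd2 (0.438) and Fads3 (0.284 CPM per kb), and here Scd1 and Fads2 overlapped, as did Elovl2, Fads1 and Elovl5, Elovl3, Elovl6 and Elovl1, and Scd2 and Fads3. Transcript choice matters to this order. With the median coding length Fads2 ranked above Scd2 in both eWAT groups. Elovl5 and Fads3 ranked above Fads1 in WT eWAT, and Elovl5 above Fads3 there. Fads3 and Elovl5 ranked above Elovl6 in IR 4A eWAT. Elovl5 ranked above Fads1 and Elovl2 in IR 4A liver and above Fads2, Elovl2 and Fads1 in WT liver. Fads3 ranked above Scd2 in both liver groups, and Elovl1 above Elovl3 in IR 4A liver. Fads1 ranked above Elovl2, and Elovl6 above Elovl3, in WT liver.

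**Figure D5:**
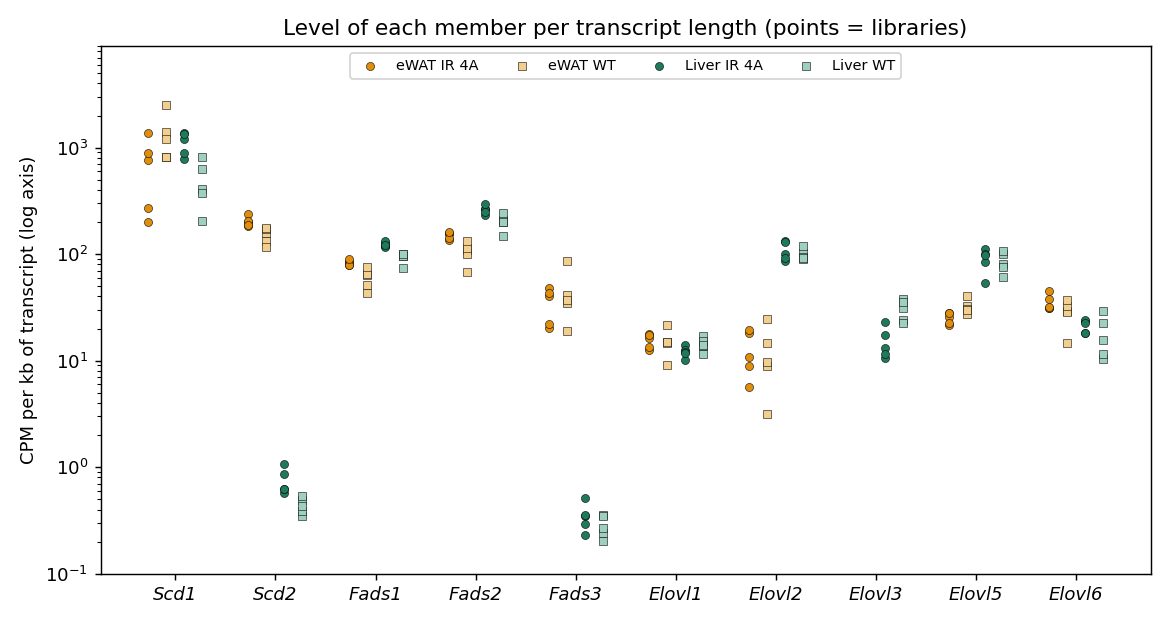
CPM per kb of transcript on a log axis for each member, a point for each library, eWAT IR 4A, eWAT WT, liver IR 4A and liver WT from left to right within a gene. Each tissue has its own scaling, so eWAT and liver points are not on a common scale and small differences between tissues cannot be read here. Scd2 and Fads3 lie at 1.08 CPM per kb or lower in every liver library and at 19.0 CPM per kb or higher in every eWAT library.

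Of 14 relations between pairs of members, 6 in eWAT and 8 in liver with group means removed, only that of Fads1 with Fads2 passed after adjustment by Pearson's r, in both tissues, and by Spearman's rho it passed in eWAT alone. Its Pearson r was 0.95 in eWAT (Spearman 0.93; adjusted permutation p = 0.00182 for Pearson and 0.0063 for Spearman) and 0.91 in liver (Spearman 0.68; adjusted permutation p = 0.00266 for Pearson and 0.182 for Spearman), and 0.78 and 0.75 without 2 libraries. Scd1 and Scd2 had r of -0.36 in eWAT and 0.14 in liver, and neither passed.

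Srebf1 had 207 to 272 CPM in IR 4A eWAT and 139 to 382 CPM in WT eWAT, and 70.7 to 131 CPM in IR 4A liver and 35.3 to 108 CPM in WT liver. Of 19 relations of a member to Srebf1, none of the 10 in liver passed, where r ran from -0.72 for Elovl1 (adjusted permutation p = 0.0836) to 0.65 for Fads1 (0.181), and Scd1 had 0.26. In eWAT 3 of 9 passed, Elovl1 with a Pearson r of 0.95 (Spearman 0.88, adjusted permutation p = 0.00237), Fads3 with 0.91 (0.85, 0.00237) and Elovl2 with -0.89 (-0.79, 0.00418), and r was 0.76, 0.80 and -0.70 without 2 libraries. The same 3 members passed with the adipocyte marker level.

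Other genes of the pathway gave 0 calls by edgeR in either tissue in each of 7 lists, where the calls at an unadjusted p under 0.05 were as follows. Of all genes, 40.1% had a positive change in eWAT and 51.0% in liver. The unadjusted threshold was passed in either direction by 15.9% of all genes in eWAT and 18.1% in liver. The 9 genes listed for malonyl-CoA and palmitate supply included Mlycd, whose enzyme breaks malonyl-CoA down. Of the 9, 2 had a positive change in eWAT with a median log2 fold change of -0.58, and 8 had one in liver with a median of 0.33. Of these, 0 passed the unadjusted threshold in eWAT and 3 in liver, where Fasn, fatty acid synthase, averaged 262 ± 18.5 CPM in IR 4A and 181 ± 46.6 CPM in WT without overlap (SD, n = 5 each; log2 0.53, edgeR adjusted p = 0.153). Acetyl-CoA carboxylase Acaca was at a log2 fold change of -0.93 in eWAT (edgeR adjusted p = 0.362) and 0.33 in liver (0.234), and Acly, ATP citrate lyase, at 0.23 (0.429) and 0.36 (0.287), and Acss2, acetyl-CoA synthetase, at -0.38 (0.463) and 0.51 (0.242). Me1, malic enzyme, was at -0.58 in eWAT (edgeR adjusted p = 0.516).

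Of 6 partners in the elongation cycle, 3 had a positive change in eWAT, 2 of them at an unadjusted p under 0.05, Tecr (log2 0.44, edgeR adjusted p = 0.291) and Hacd3 (0.24, 0.291), the enoyl reductase and a dehydratase. In liver 2 of 6 were positive and 1 was lower at an unadjusted p under 0.05, Hsd17b12, the ketoacyl reductase (log2 -0.18, edgeR adjusted p = 0.269), with Hacd3 at -0.24 (0.313). Of the electron donors of the desaturases, 1 of 6 in eWAT and 1 of 5 in liver were higher at an unadjusted p under 0.05, Cyb5r2 in eWAT (log2 0.75, edgeR adjusted p = 0.291, no overlap) and Cyb5r3 in liver (0.29, 0.262). Both encode cytochrome b5 reductases.

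Of 7 other desaturases and elongases listed, 7 were tested in eWAT and none passed the unadjusted threshold, and 2 were tested in liver. There Degs1, the dihydroceramide desaturase, averaged 57.6 ± 8.49 CPM in IR 4A and 44.9 ± 3.80 CPM in WT (SD, n = 5 each; log2 0.36, edgeR adjusted p = 0.144), and Fads6 had a log2 fold change of 0.15 (0.387). Elovl4, which makes very long chain acids in retina, skin and testis, was at 0.151 CPM in eWAT WT 4 and at 22.02 to 57.3 CPM in the other 9 eWAT libraries. Scd3, Degs2 and Degs1 had log2 fold changes of 0.56, 0.80 and -0.26 in eWAT (edgeR adjusted p = 0.511, 0.490 and 0.614).

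Of 15 regulators, 2 were higher and 1 was lower in eWAT at an unadjusted p under 0.05, and 3 were higher and 4 lower in liver. The shares of all genes at that threshold, in either direction, were 15.9% in eWAT and 18.1% in liver. In eWAT Insig1, which holds the SREBP precursors in the endoplasmic reticulum, averaged 109 ± 9.70 CPM in IR 4A and 85.8 ± 9.0 CPM in WT (SD, n = 5 each; log2 0.35, edgeR adjusted p = 0.203), Srebf2 was at 0.42 (0.263), Mbtps2 at -0.22 (0.331) and Insig2 was at -0.45 without overlap (0.222). In liver the 4 genes with the smallest unadjusted p were all lower in IR 4A, the nuclear receptors Nr1h3 (log2 -0.21, edgeR adjusted p = 0.171), Rxra (-0.30, 0.175) and Nr1h2 (-0.17, 0.199) and the sterol regulator Srebf2 (-0.36, 0.204). The 3 higher regulators had larger unadjusted p. Srebf1, also among the 15, had 70.7, 91.5, 131, 94.7 and 90.0 CPM in IR 4A livers, against 35.3, 108, 49.5, 52.4 and 57.2 CPM in WT livers.

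Of 8 acyl-CoA synthetases tested, 0 passed the unadjusted threshold in eWAT, where Slc27a2, Slc27a4, Acsl4 and Slc27a1 were at log2 fold changes of 0.40, 0.29, 0.22 and -0.49 (edgeR adjusted p from 0.354 to 0.511), and 1 was higher in liver, Acsl5 (log2 0.41, edgeR adjusted p = 0.196, no overlap). Of 8 genes of peroxisomal shortening, 0 passed in eWAT and 1 was higher in liver, Abcd2, a transporter of very long chain acyl-CoA, with 13.5 ± 11.4 CPM in IR 4A and 3.96 ± 2.97 CPM in WT (SD, n = 5 each; log2 1.77, edgeR adjusted p = 0.184). Abcd2 was at -0.87 in eWAT (edgeR adjusted p = 0.463), and a positive change was seen in 2 of 8 genes in eWAT and 7 of 8 in liver.

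The genes most like a member were ranked by Pearson r of log2 CPM over the 10 libraries of a tissue, among genes that averaged 5 CPM or more. In eWAT, Scd1 was most like Steap4, S1pr1, Cdh5, Erg and Cd93 (r from 0.987 to 0.991), of which Cdh5 is on the endothelial marker list, Elovl6 most like Aass, Kif16b, Garem1, Rtl5 and Galnt10 (0.98 to 0.993), and Fads2 most like Zbed3, Rab25, Pou3f3, Tmem51 and Wars (0.977 to 0.983). In liver, Scd1 was most like 4632404H12Rik, Myo1d, D630039A03Rik, Dynlt3 and Enox2 (0.932 to 0.974), Elovl6 most like Rapgef4, Gpcpd1, Vps26a, Zfp36l2 and Hsd17b11 (0.931 to 0.977), and Fads2 most like Gpam, Lpcat3, Ctsf, Eif4ebp2 and Tmem135 (0.918 to 0.948). No gene was among the 5 for the same member in both tissues.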

How the data were processed

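Poly-A RNA of 20 libraries was measured with a stranded kit, per the labels' protocols. The submitters' processing notes name Salmon (1.8.0), the build GRCm39 and DESeq2 (1.32.0). The deposited tables hold estimated counts, rounded to whole numbers by the authors, for genes with a total of at least 10. The authors' deposited DESeq2 tables hold a mean signal (normalized counts), a log2 fold change with its error and a p-value per gene. Repeated identifiers were dropped (83 in liver, 208 in eWAT).

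Genes were kept by filterByExpr (minimum count 10, minimum total 15), leaving 12421 in liver, 16476 in eWAT and 14696 in both, members included, and scaled by TMM to CPM. IR 4A was compared with WT by the quasi-likelihood F test of edgeR 4.0.16 (two-sided, Benjamini-Hochberg over all genes, threshold 0.05, R 4.3.3). A common coefficient of biological variation of 0.512 in eWAT and 0.187 in liver limits the precision of single genes. Correlations used 100000 permutations and log2 CPM (prior count 2). No library duplicated another of its own group (chi-square per degree of freedom at least 12.5 in 40 pairs), and pairs across groups were not compared. All 10 members are named, with up to 4 genes per pathway list by the smallest unadjusted p and 5 genes per likeness search. The members and lists were chosen with earlier results of these data known. Lengths come from GENCODE M21 transcripts. Only the median estimates of planted changes were checked, on simulated counts of independent libraries. Those counts did not hold the marker differences between eWAT libraries. Alternatives were RLE scaling, no or a stricter filter (1 CPM in 5 libraries), DESeq2 1.42.0, limma 3.58.1 voom with sample weights, a replicate block, each library left out, and, chosen after the data had been seen, sets of eWAT libraries left out and marker levels as covariates.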

Additional observations from a re-analysis of the deposited data

Results flagged for a closer look

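Of 38 groups of 5 libraries, 1 had a library far from the others for a member: Fads1 in liver WT 1, at 257 CPM against 334 to 347 CPM in the other WT livers. Chance gives such a library in about 1 of 20 groups. Without liver WT 1 and WT 3 the log2 fold change of Fads1 in liver was 0.32, against 0.40 with them.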

How the results depend on the processing

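The members called numbered 0 in eWAT, liver and the difference between tissues under RLE scaling, either filter and the replicate block. Between WT eWAT and WT liver 8 were called under RLE scaling, either filter and DESeq2, and 7 under voom and with the replicate block. By DESeq2 3 members were called in eWAT, 4 in liver and 1 in the difference, where limma voom called 1. Leaving out each library gave 0 to 0 members in eWAT, 0 to 0 in liver, 0 to 1 in the difference (1 without eWAT IR 4A 1) and 7 to 8 between tissues. Between tissues, Elovl6 was at -0.39 under voom and -0.60 with the replicate block and no longer passed. The causes were not tested.

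Genes called in liver numbered 1, against 451 by DESeq2, 4 by voom, 3 with the replicate block, 0 without WT 1 and WT 3, and 0 to 143 with each library left out (143 without IR 4A 1). In eWAT 2 genes were called, against 0 with no filter, 1 with the stricter filter, 1204 by DESeq2, 78 by voom, 0 with the replicate block, 0 without either set of libraries, 854 with adipocyte and 0 with epididymis markers as a covariate, and 0 to 6 with each library left out (6 without IR 4A 3). For the difference between tissues 354 genes were called, against 1273 by DESeq2, 628 by voom, 0 with the replicate block, 20 without WT 4, IR 4A 3 and IR 4A 4, 23 without WT 1, WT 2, IR 4A 3 and IR 4A 4, and 70 to 729 with each library left out (70 without liver IR 4A 4, 729 without eWAT WT 5). Between tissues leaving out a library gave 11035 to 11396 genes.

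Members that were not called changed sign in places. In eWAT, Elovl2 was at -0.039 under voom, -0.77 without WT 4, IR 4A 3 and IR 4A 4, -0.70 and -0.38 with the adipocyte and epididymis covariates and -0.19 to 0.52 with each library left out. Fads3 was at 0.40, 0.38 and 0.15 without those 3 libraries and with the adipocyte and epididymis covariates, and at -0.50 to 0.071, and Elovl1 at -0.059 to 0.21. In liver, Elovl5 was at -0.019 under voom and -0.0084 to 0.23, and Elovl6 at -0.079 without WT 1 and WT 3. In the difference, Elovl2 was at 0.0056 under RLE scaling, 0.0050 by DESeq2, 0.057 with the replicate block, 0.13 without WT 1, WT 2, IR 4A 3 and IR 4A 4 and -0.30 to 0.35, Elovl6 at -0.15 under voom, -0.00255 with the block, -0.030 without WT 4, IR 4A 3 and IR 4A 4 and -0.20 to 0.19, Fads1 at -0.072 under voom and Fads3 at 0.14 without WT 4, IR 4A 3 and IR 4A 4. Scd1 between tissues was at -0.047 under voom and -0.35 to 0.39.

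Deviations of same-numbered libraries correlated at -0.73 to 0.67 between the eWAT genotypes, over 0.1 in 1 of 5, and at -0.07 to 0.08 between the liver genotypes. Between eWAT and liver of the same genotype they correlated at -0.16 to 0.07 in IR 4A and -0.09 to 0.03 in WT. Such correlations cannot decide whether libraries of the same number came from the same animal.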
